A study of Mus musculus with 13 samples.

Results

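The genes described here are 8 members of the mouse insulin-like growth factor (IGF) system: the binding protein genes Igfbp2, Igfbp3, Igfbp4, Igfbp5, Igfbp6 and Igfbp7 and the receptor genes Igf1r and Igf2r. They are 8 of 34857 genes in the deposited tables, were taken by name, and were chosen by their FPKM in experimental against control libraries at each passage, so their own differences are given as a description. RNA came from Neuro2a, a mouse neuroblastoma line, in 13 poly(A) libraries. All vials were frozen in 10% DMSO, a cryoprotectant, and thawed at 37 °C. The experimental cells went through a model of failed cryostorage in which the liquid nitrogen was lost over 10 h and the vials stood for 24 h at 4 °C, 34 h in all, before 72 h at -80 °C. Control cells stayed in normal cryostorage. Libraries were made at passage 1, when stressed cells divided rapidly again (4 experimental, 3 control), and at passage 6, when they looked normal (3 experimental, 3 control), with controls matched in time. Neuro2a is a single cell line, and the labels do not say whether replicates were separate cultures. Values are FPKM, by definition fragments scaled to transcript length and to the mapped fragments of the library, so they are levels per length. How the deposited values were scaled between libraries is not given in the sources used here. The number of reads behind them is unknown, and the 2 passages are separate tables whose levels are set side by side only as a description.

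IGF1 and IGF2 are small secreted growth factors that signal for growth and survival through the tyrosine kinase receptor encoded by Igf1r. IGF binding proteins are secreted proteins that hold the ligands outside the cell, slow their access to the receptor or deliver it near the membrane, and also bind matrix and integrins on their own. The receptor encoded by Igf2r does not signal for growth; it takes up and degrades IGF2 and carries lysosomal enzymes tagged with mannose 6-phosphate. In human neuroblastoma lines the IGF system is known as an autocrine growth and survival route.

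The 3 binding protein genes that were higher in experimental cells at both passages have promoters of different make-up, and their sequences are shown because these members were called higher at both passages. The window searched ran from 250 bases before to 50 after the RefSeq start site on GRCm38.p6, and the 250 bases before it are printed 5′ to 3′ on the gene's own strand, at chr1:72824230-72824479 (plus strand) for Igfbp2, chr1:72874866-72875115 (minus strand) for Igfbp5 and chr11:99040994-99041243 (plus strand) for Igfbp4. Capitals mark matches, on either strand, to 8 motifs fixed for the search.
Igfbp2: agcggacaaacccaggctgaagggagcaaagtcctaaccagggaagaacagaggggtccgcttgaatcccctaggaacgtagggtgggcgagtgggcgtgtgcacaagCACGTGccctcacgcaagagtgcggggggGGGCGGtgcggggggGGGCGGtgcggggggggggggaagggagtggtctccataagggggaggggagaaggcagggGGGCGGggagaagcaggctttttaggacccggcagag
Igfbp5: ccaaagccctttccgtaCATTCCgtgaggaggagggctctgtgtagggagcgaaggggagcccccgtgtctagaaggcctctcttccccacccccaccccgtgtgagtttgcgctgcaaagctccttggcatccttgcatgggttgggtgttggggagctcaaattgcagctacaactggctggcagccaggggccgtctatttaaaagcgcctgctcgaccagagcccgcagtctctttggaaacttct
Igfbp4: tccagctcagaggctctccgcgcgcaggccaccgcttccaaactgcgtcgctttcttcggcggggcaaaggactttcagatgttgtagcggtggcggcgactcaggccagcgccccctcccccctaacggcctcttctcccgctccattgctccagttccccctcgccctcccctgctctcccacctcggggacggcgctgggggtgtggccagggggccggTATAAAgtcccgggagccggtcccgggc
The Igfbp2 window held 3 matches to the GC box GGGCGG, at positions -113, -98 and -37 from the start site, and an E-box CACGTG at -142 that overlaps the hypoxia response core ACGTG on both strands. It held no TATA box TATAAA, and 67% of its bases were G or C. The Igfbp5 window, with 56.3% G or C, held a match to the TEAD site GGAATG, on the opposite strand at -233. The Igfbp4 window, with 71.3% G or C, held TATAAA at -28. None of the 3 windows held the EGR site GCGGGGGCG, the AP-1 site TGANTCA or the FOXO site TGTTTAC. Of 32851 RefSeq promoters of the same length, 35.7% held the GC box, 19.6% the hypoxia core, 7.15% the E-box, 13.6% the TATA box, 14.7% the TEAD site, 2.91% the EGR site, 7.81% the AP-1 site and 3.65% the FOXO site, searched in the same way on both strands. A match says only that these letters are present.

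All 8 members had a RefSeq promoter entry. Igfbp2 had 2 entries, and the entry not printed above was not searched. Among the other 5 windows, GC boxes occurred in Igfbp7 (4 matches), Igf2r (3) and Igf1r (2), and the hypoxia core in Igf2r (4) and Igfbp7 (1). The Igf2r window also held 2 E-boxes, which overlap its hypoxia cores, and an EGR site at -29 that overlaps GC boxes. The Igfbp6 window held TATAAA on the opposite strand at -148. The Igfbp3 window held none of the 8 motifs.

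**Figure D1:**
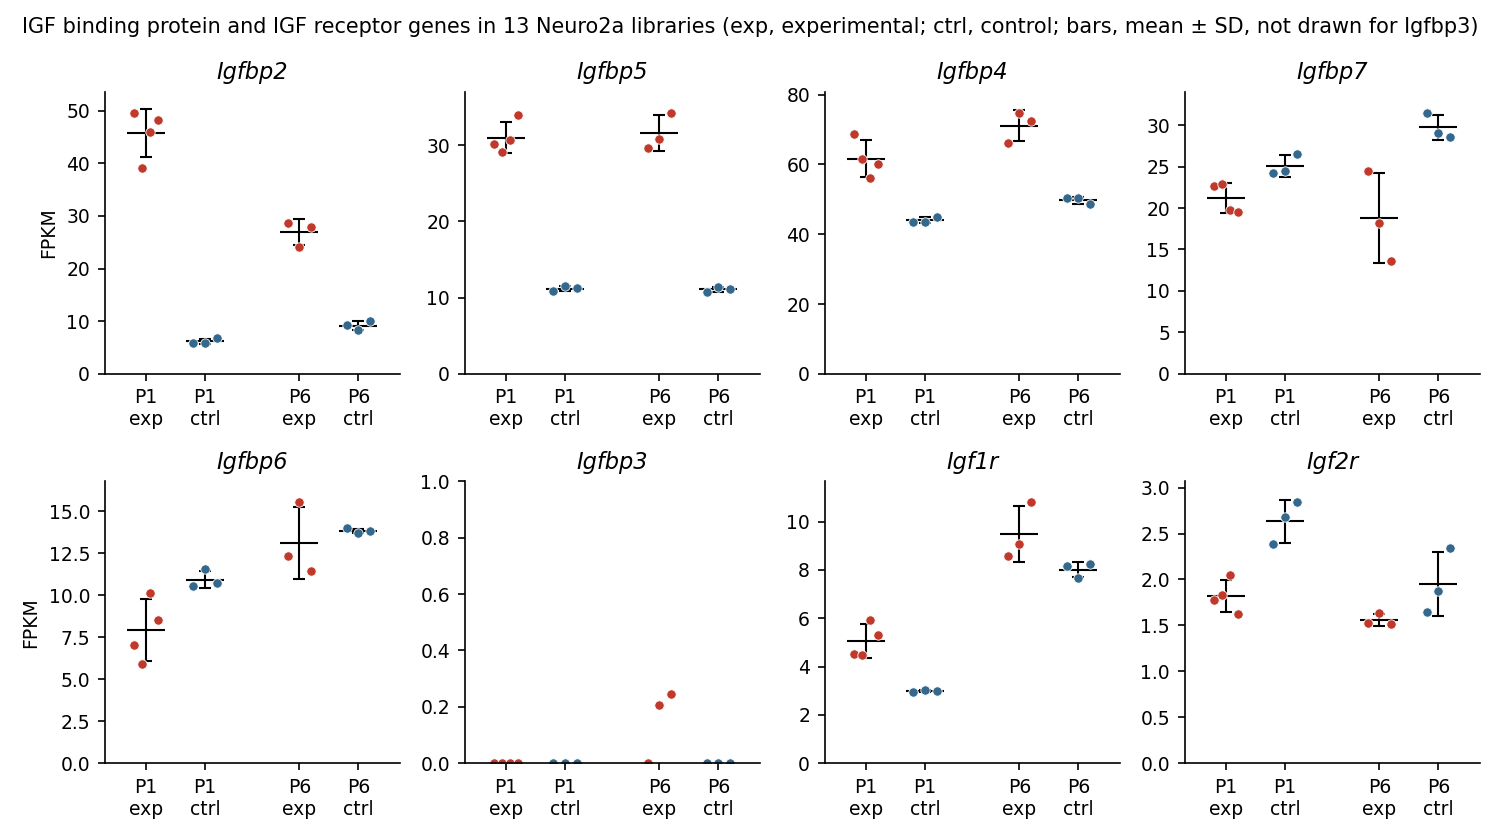
FPKM (vertical axes, each starting at 0) of the 8 members in every library, by passage (P1, P6) and group; points are libraries and bars are mean ± SD, with no bar for Igfbp3. Every experimental library lies above every control for Igfbp2, Igfbp5, Igfbp4 and Igf1r at both passages, and Igfbp3 stays at or below 0.246 FPKM.

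Igfbp2 differed more than any other member. It encodes a binding protein that carries both IGFs, contains an integrin-binding sequence and is abundant in fetal tissues and many tumours. The gene (ENSMUSG00000039323) lies at chr1:72824503-72852474 on the plus strand of GRCm38 and has 4 exons. At passage 1, Igfbp2 had 49.6, 39.2, 45.9 and 48.3 FPKM in experimental libraries, against 5.79, 5.96 and 6.75 FPKM in controls. The lowest experimental library thus lay far above the highest control. At passage 6, Igfbp2 had 28.7, 24.2 and 27.9 FPKM in experimental libraries, against 9.31, 8.26 and 10.0 FPKM in controls. The groups again did not overlap, but the experimental libraries lay lower and the controls higher than those of the passage 1 table. The means were 45.7 ± 4.62 FPKM in experimental and 6.17 ± 0.512 FPKM in control cells at passage 1 (SD, n = 4 and 3), a ratio of 7.41, and 26.9 ± 2.43 FPKM and 9.19 ± 0.872 FPKM at passage 6 (SD, n = 3 each), a ratio of 2.93. On the log2(FPKM + 1) scale, which understates changes of low genes, the difference of experimental minus control was 2.70 (SE 0.0875) at passage 1, the 4th highest of 12469 genes, and 1.46 (SE 0.088) at passage 6, the 20th highest of 12458. The change at passage 6 minus that at passage 1 was -1.25 (SE 0.133), the 45th lowest of 13019 genes.

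Igfbp5 was raised to nearly the same extent at both passages. It encodes the most conserved of the binding proteins, which binds strongly to extracellular matrix. The gene (ENSMUSG00000026185) lies at chr1:72857932-72874884 on the minus strand and has 4 exons. At passage 1, Igfbp5 had 30.1, 29.2, 30.7 and 34.0 FPKM in experimental libraries, against 10.9, 11.5 and 11.2 FPKM in controls. At passage 6, Igfbp5 had 29.6, 30.8 and 34.25 FPKM in experimental libraries, against 10.8, 11.4 and 11.1 FPKM in controls. Neither passage had overlapping groups, and the libraries of each group stood at close to the same level in the 2 tables. The means were 31.0 ± 2.08 and 11.2 ± 0.32 FPKM at passage 1 (SD, n = 4 experimental and 3 control) and 31.6 ± 2.39 and 11.1 ± 0.288 FPKM at passage 6 (SD, n = 3 each), ratios of 2.77 and 2.85. The log2 difference was 1.39 (SE 0.0588) at passage 1 and 1.43 (SE 0.063) at passage 6, the 26th and 22nd highest of all genes tested. The change at passage 6 minus that at passage 1 was 0.04 (95% confidence interval -0.15 to 0.23).

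Igfbp2 and Igfbp5 are neighbours that face each other tail to tail, 5457 bp apart. Within 500 kb of the pair, the protein-coding genes Xrcc5, March4 and Smarcal1 were not called at either passage, with log2 differences of -0.10 to 0.11 at passage 1 and of -0.13 to 0.07 at passage 6. Rpl37a, a ribosomal protein gene, was higher at passage 1 (log2 difference 0.15) and had -0.24 at passage 6, where it was not called. Ankar and Tnp1, also in that interval, were not analysed here. The ratio of Igfbp2 to Igfbp5 within a library does not depend on the scaling of libraries, and was computed after the values were seen. It was 1.64, 1.34, 1.49 and 1.42 in experimental libraries and 0.533, 0.518 and 0.600 in controls at passage 1. At passage 6 it was 0.969, 0.784 and 0.816 in experimental libraries and 0.863, 0.728 and 0.897 in controls. Igfbp2 therefore exceeded Igfbp5 in all 4 experimental libraries of passage 1 and lay below it in the other 9 libraries, and the groups overlapped at passage 6.

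**Figure D2:**
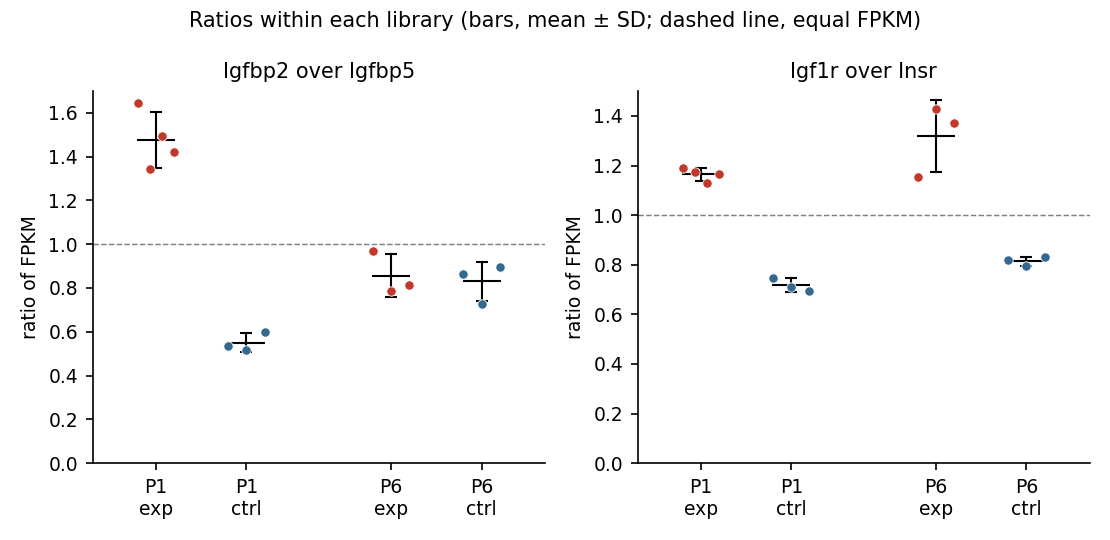
Ratio of FPKM (vertical axes) of Igfbp2 to Igfbp5 and of Igf1r to the insulin receptor gene Insr within each library, by passage and group; points are libraries, bars are mean ± SD and the dashed line marks equal FPKM. The Igfbp2 to Igfbp5 ratio separates the groups at passage 1 (1.34 to 1.64 against 0.518 to 0.600) and not at passage 6, while Igf1r to Insr separates them at both.

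Igfbp4 was the most abundant member in every group and rose moderately. Its product mainly holds IGFs away from the receptor and is cleaved by pappalysin. The gene (ENSMUSG00000017493) lies at chr11:99041244-99054392 on the plus strand, with 4 exons. At passage 1, Igfbp4 had 68.8, 61.6, 56.2 and 60.1 FPKM in experimental libraries, against 43.5, 43.6 and 45.0 FPKM in controls. At passage 6, Igfbp4 had 66.2, 74.7 and 72.3 FPKM in experimental libraries, against 50.3, 50.4 and 48.5 FPKM in controls. Every experimental library lay above every control at both passages. The ratio of means was 1.4 and 1.43, and the log2 difference 0.47 (SE 0.0668) at passage 1 and 0.51 (SE 0.0563) at passage 6. That placed it 510th and 311th from the top, well behind its relatives on chromosome 1.

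Igfbp7 was lower in experimental cells, with a wide spread at passage 6. It encodes a secreted relative that binds IGFs weakly. The gene (ENSMUSG00000036256) lies at chr5:77349240-77408041 on the minus strand and overlaps Polr2b, an RNA polymerase II subunit gene on the other strand, by 85 bp, and the antisense gene Gm34648 by 7085 bp; since the labels do not say that counting used strand, reads from the overlaps cannot be told apart. At passage 1, Igfbp7 had 22.7, 22.9, 19.7 and 19.5 FPKM in experimental libraries, against 24.2, 24.4 and 26.5 FPKM in controls. At passage 6, Igfbp7 had 24.5, 18.2 and 13.6 FPKM in experimental libraries, against 31.5, 29.1 and 28.6 FPKM in controls. The groups did not overlap, although at passage 1 the nearest libraries were 22.9 and 24.2 FPKM. The log2 difference was -0.23 (SE 0.0724) at passage 1 and -0.67 (SE 0.18) at passage 6. The passage 1 call was lost without any 1 of the 3 controls or without experimental library 3 or 4 (-0.26 to -0.19) and under each of 3 other scalings (-0.22 to -0.17). At passage 6 it was lost without any 1 of the controls or without experimental library 2 or 3 (-0.70 to -0.47), with median-of-ratios scaling (-0.63) and with the colon marker sum as a covariate (-0.22). Without libraries 2 and 3 together the value was -0.27 and called, in a fit with 1 experimental library that is assumed to vary like the controls.

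Igfbp6, whose product prefers IGF2, was not called at either passage. The gene (ENSMUSG00000023046) lies at chr15:102144362-102149511 on the plus strand. At passage 1, Igfbp6 had 7.02, 5.92, 10.1 and 8.54 FPKM in experimental libraries, against 10.5, 11.5 and 10.7 FPKM in controls. At passage 6, Igfbp6 had 12.3, 15.5 and 11.5 FPKM in experimental libraries, against 14.0, 13.7 and 13.8 FPKM in controls. The groups did not overlap at passage 1, where the log2 difference was -0.44 (SE 0.146), and overlapped at passage 6, where it was -0.08 (SE 0.102), -0.20 without experimental library 2 and 0.000876 without experimental library 3, not called in either case. Without experimental library 3 the passage 1 value was -0.56 and called. The summed colon epithelium markers in the experimental libraries of passage 1 were 207, 188, 8.04 and 90.2 FPKM, so the libraries with the higher sums, 1 and 2, had the lower Igfbp6. With that sum as a covariate the log2 difference was -0.69 and called. In controls the sums were 221 to 499 FPKM, above every experimental library, so the fit cannot fully separate the covariate from the group.

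Igfbp3, which encodes the main carrier of IGFs in blood, was listed at 0 in 11 of 13 libraries. The exceptions were passage 6 experimental libraries 2 and 3, with 0.206 and 0.246 FPKM, the same 2 libraries that carried liver, brain and fibroblast markers. The gene (ENSMUSG00000020427) lies at chr11:7206086-7213923 on the minus strand and did not reach the minimum for testing, 1 FPKM in 3 libraries of a passage. Igfbp1, its neighbour 3539 bp away and the remaining classical binding protein gene, was listed at 0 in all libraries but passage 6 experimental library 3, at 0.0314 FPKM. Adcy1, another neighbour of that pair, averaged 0 and 0.00422 FPKM in experimental and control cells at passage 1 and 0.714 and 0 FPKM at passage 6, and was not tested.

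The receptor genes moved in opposite directions at passage 1. Igf1r (ENSMUSG00000005533, chr7:67952827-68233668, plus strand, 21 exons) encodes the signalling receptor of both IGFs. At passage 1, Igf1r had 4.53, 4.46, 5.94 and 5.32 FPKM in experimental libraries, against 2.96, 3.04 and 2.97 FPKM in controls. At passage 6, Igf1r had 8.58, 9.09 and 10.8 FPKM in experimental libraries, against 8.14, 7.65 and 8.23 FPKM in controls. Experimental libraries lay above controls at both passages, by a wide margin at passage 1 and a narrow one at passage 6. The log2 difference was 0.60 (SE 0.0903) at passage 1, called, and 0.21 (SE 0.0842) at passage 6, not called; without passage 6 experimental library 1 it was 0.28 and called, and without library 3 it was 0.13 and not called. The change at passage 6 minus that at passage 1 was -0.38 (95% confidence interval -0.66 to -0.10) and not called over all genes, though it was called without passage 1 experimental library 2 (-0.43) or passage 6 experimental library 3 (-0.47).

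Igf2r (ENSMUSG00000023830, chr17:12682406-12769664, minus strand, 48 exons) was the least abundant receptor gene. At passage 1, Igf2r had 1.78, 1.83, 2.05 and 1.62 FPKM in experimental libraries, against 2.38, 2.68 and 2.84 FPKM in controls. At passage 6, Igf2r had 1.53, 1.63 and 1.52 FPKM in experimental libraries, against 1.65, 1.87 and 2.34 FPKM in controls. Experimental libraries lay below controls at both passages, but the nearest libraries at passage 6 were 1.63 and 1.65 FPKM. The log2 difference was -0.37 (SE 0.0776) at passage 1, called, and -0.20 (SE 0.0999) at passage 6, not called. Without control 3 the passage 1 call was lost (-0.32) and the passage 6 value was -0.11. Airn, the antisense RNA that silences one parental copy of Igf2r, overlaps the gene by 28354 bp and averaged 0.333 and 0.488 FPKM in experimental and control cells at passage 1 and 0.278 and 0.377 FPKM at passage 6, so its reads may be mixed with those of Igf2r.

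The ratio of Igf1r to Insr, the gene of the closely related insulin receptor, was also computed after the values were seen. It was 1.16 ± 0.0255 in experimental and 0.718 ± 0.0265 in control libraries at passage 1 (SD, n = 4 and 3), and 1.32 ± 0.145 and 0.814 ± 0.0177 at passage 6 (SD, n = 3 each). Igf1r thus exceeded Insr in all 7 experimental libraries and lay below it in all 6 controls. At passage 1 the ratio went with higher Igf1r, and at passage 6 mostly with lower Insr, which is described with the adaptors. The ratio of Igf1r to Igf2r was 2.79 ± 0.384 and 1.14 ± 0.0992 at passage 1 and 6.1 ± 0.879 and 4.18 ± 0.71 at passage 6, in experimental and control libraries in that order each time.

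**Figure D3:**
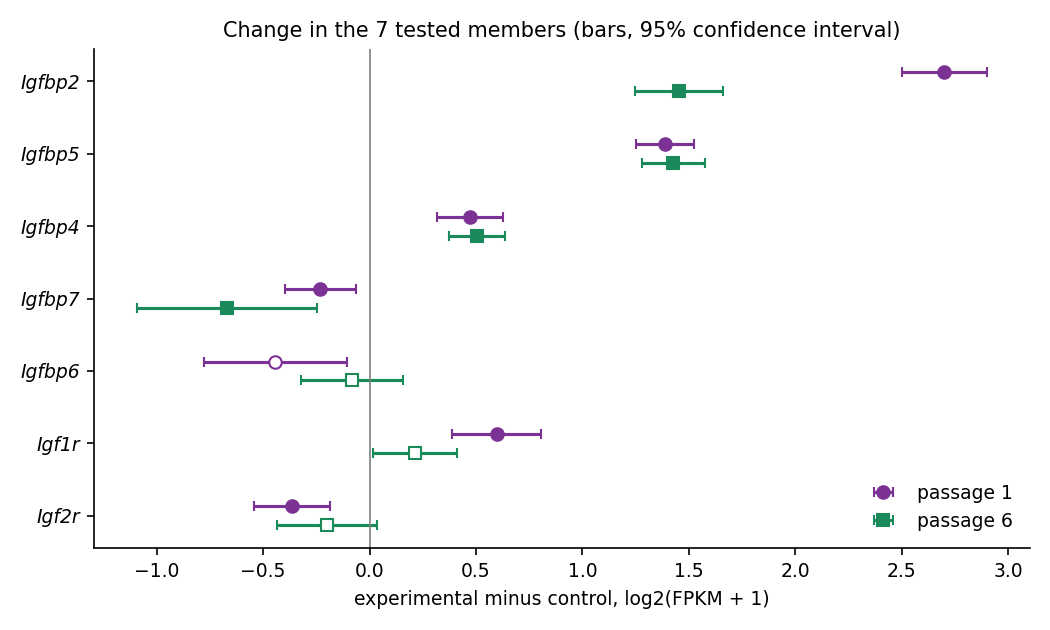
Difference of experimental minus control in log2(FPKM + 1) (horizontal axis) for the 7 members tested, at passage 1 (circles) and passage 6 (squares); bars are 95% confidence intervals and filled symbols are called genes. Igfbp2 lies at 2.70 at passage 1 and 1.46 at passage 6, Igfbp5 (1.39 and 1.43) and Igfbp4 (0.47 and 0.51) each lie at much the same place at both passages, and Igfbp7 and Igf2r lie below 0.

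Counted over the members, 7 of 8 passed the filter, and genes were called where the adjusted p of limma was under 0.05. At passage 1, 6 of the 7 were called, 4 higher (Igfbp2, Igfbp4, Igfbp5, Igf1r) and 2 lower (Igfbp7, Igf2r), where 30.4% of all 12469 genes were called, 11.5% higher and 18.9% lower. At passage 6, 4 were called, 3 higher (Igfbp2, Igfbp4, Igfbp5) and 1 lower (Igfbp7), where 19.8% of 12458 genes were called, 8.98% higher and 10.8% lower. The difference between passages was called for Igfbp2, which was lower, where 14.7% of 13019 genes were called, 8.46% higher and 6.27% lower. Groups did not overlap for 7 members at passage 1 and 6 at passage 6, as for 42.6% and 41.7% of all genes. The members were chosen with these contrasts known, so nothing is read from their counts. The median log2 difference of the tested members was 0.47 at passage 1 and 0.21 at passage 6, beside -0.05 and -0.04 over all genes.

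Summed, the 6 binding protein genes gave more transcript per length in experimental cells, and the make-up of the sum changed. The sum was 178.2, 158.8, 162.7 and 170.3 FPKM in experimental libraries and 94.9, 97.0 and 100.2 FPKM in controls at passage 1, and 161.4, 163.7 and 159.9 FPKM against 115.8, 112.8 and 112.05 FPKM at passage 6. The groups stood far apart at both passages. Igfbp2 made up 27.3 ± 1.73% of the sum in experimental and 6.33 ± 0.354% in control cells at passage 1, and 16.7 ± 1.66% and 8.1 ± 0.798% at passage 6. Igfbp5 made up 18.5 ± 1.27% and 11.5 ± 0.32% at passage 1, and 19.5 ± 1.65% and 9.77 ± 0.405% at passage 6. The share of Igfbp7 was 12.7 ± 1.29% in experimental and 25.7 ± 0.679% in control cells at passage 1, and 11.6 ± 3.35% and 26.2 ± 0.885% at passage 6. Igfbp4 was the largest share throughout, at 36.8 ± 2.21% and 45.2 ± 0.536% at passage 1, and 43.98 ± 2.56% and 43.8 ± 0.75% at passage 6, so the groups stood apart in its share at passage 1 and overlapped at passage 6.

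**Figure D4:**
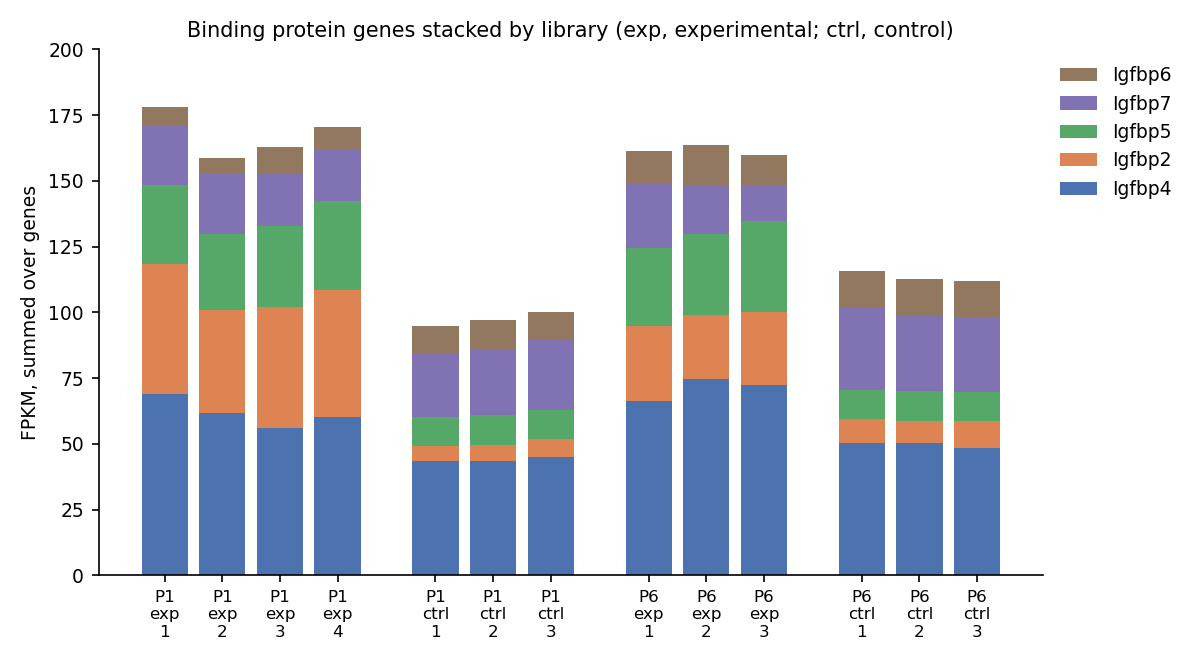
FPKM summed over the binding protein genes (vertical axis, from 0) in each library, stacked by gene, with experimental libraries left of the controls of the same passage. The stacks reach 158.8 to 178.2 FPKM in experimental and 94.9 to 100.2 FPKM in control cells at passage 1. There the Igfbp2, Igfbp5 and Igfbp4 segments are taller in experimental cells, and those of Igfbp7 and Igfbp6 are shorter.

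The order of levels therefore differed between the groups. In experimental cells at passage 1 it ran Igfbp4, Igfbp2, Igfbp5, Igfbp7, Igfbp6, Igf1r and Igf2r, and only the neighbours Igfbp6 and Igf1r had overlapping libraries. In controls at passage 1 it ran Igfbp4, Igfbp7, Igfbp5, Igfbp6, Igfbp2, Igf1r and Igf2r, with overlap between Igfbp5 and Igfbp6. At passage 6 experimental cells had Igfbp4, Igfbp5, Igfbp2, Igfbp7, Igfbp6, Igf1r and Igf2r, with overlap of Igfbp2 with Igfbp7 and of Igfbp7 with Igfbp6, while controls had Igfbp4, Igfbp7, Igfbp6, Igfbp5, Igfbp2, Igf1r and Igf2r with no overlap. Igfbp2 lay above 91.3% of tested genes in experimental and 44.5% in control cells at passage 1, and above 86.7% and 61.1% at passage 6. Igfbp4 lay above 94.0% and 91.0% at passage 1 and 95.7% and 93.6% at passage 6.

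Some libraries held transcripts of tissues other than a neuroblastoma, and these are set beside the members. The neuroblastoma list itself was present: 12 of its 15 genes reached 1 FPKM at passage 1, with sums of 1005 to 1076 FPKM in experimental and 1060 to 1097 FPKM in control cells, and Phox2a and Hand2 were detected, while the neurofilament gene Nefl was at most 0.0207 FPKM at that passage. At passage 6 the neuroblastoma sums were 1300 to 1468 FPKM in experimental and 1187 to 1239 FPKM in control cells, without overlap, and Nefl had 2.91 and 2.235 FPKM and Nefm 1.54 and 1.22 FPKM in experimental libraries 2 and 3, while both were at most 0.0332 FPKM in experimental library 1 and the controls. The part of these differences in the members' values was not tested. Liver markers summed to 1.22, 215 and 174 FPKM in passage 6 experimental libraries 1 to 3. Of these markers, 13 of 15 reached 1 FPKM in library 2 or 3, while the highest in library 1 was Hpx at 0.629 FPKM. The sums were 1.51 to 2.15 FPKM in controls of that passage, where Alb and 8 other markers were at 0. The same libraries 2 and 3 had brain sums of 84.4 and 68.5 FPKM and fibroblast sums of 159 and 142 FPKM, against 29.3 to 31.4 and 15.3 to 21.2 FPKM in those controls. In experimental library 1, without these transcripts, Igfbp2 was at 28.7 FPKM, slightly above the 24.2 and 27.9 FPKM of libraries 2 and 3. With libraries 2 and 3 left out the passage 6 log2 differences were 1.55 for Igfbp2, 1.34 for Igfbp5, 0.41 for Igfbp4 and 0.09 for Igf1r, and the first 3 were still called. That fit holds 1 experimental library, which is assumed to vary like the controls. Colon epithelium markers summed to 8.04 to 207 FPKM in experimental and 221 to 499 FPKM in control cells at passage 1, and to 118, 7.77 and 8.83 FPKM and 124 to 269 FPKM at passage 6. With that sum as a covariate Igfbp7 had a log2 difference of -0.16 at passage 1 and was not called. The colon sums did not overlap between the groups at either passage, so such fits cannot fully separate the covariate from the group. Endothelial sums were 2.99 to 6.38 FPKM and leukocyte sums 0.772 to 6.57 FPKM over all libraries. In bulk RNA, fewer cells of a type and less RNA per cell cannot be told apart.

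Across all genes, 3792 were called at passage 1 (1434 higher, 2358 lower) and 2462 at passage 6 (1119 higher, 1343 lower). Leaving out control 1, 2 or 3 gave 2175, 2173 or 2183 genes at passage 1 and 836, 723 or 777 at passage 6, and leaving out passage 6 experimental library 1 or 3 gave 4296 or 1609. The share of higher genes among those called was 37.8% at passage 1, and 50.1%, 55.5% and 48.8% with quantile normalization, median-of-ratios scaling and equal totals. At passage 6 it was 45.5%, and 57.5% with median-of-ratios scaling. Total FPKM per library ran from 315034 to 354288, and 12014 to 12467 genes reached 1 FPKM.

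Of the ligand genes, Igf1 was near 0 and Igf2 varied widely between libraries of a group. Igf1 was at most 0.305 FPKM, in passage 6 experimental libraries 2 and 3, and at most 0.0163 FPKM elsewhere, and Igfals, the gene of the acid-labile subunit, was at most 0.271 FPKM. Igf2 had 4.18, 3.93, 4.16 and 0.0211 FPKM in experimental and 0, 6.44 and 6.56 FPKM in control libraries at passage 1. At passage 6 it had 0.00017, 1.16 and 0.0923 FPKM in experimental libraries, against 3.24, 3.95 and 6.95 FPKM in controls. The libraries near 0 at passage 1, experimental 4 and control 1, were those with the lowest cartilage marker sums, 16.8 and 12.9 FPKM against 39.5 to 57.4 FPKM in the others. H19, the imprinted RNA next to Igf2, followed the same pattern, at 7.15, 7.11, 7.16 and 0.292 FPKM in experimental and 0.0212, 11.2 and 10.3 FPKM in control libraries of passage 1. At passage 6 the log2 difference of Igf2 was -2.05 (SE 0.338, adjusted p = 0.00919, limma with Benjamini-Hochberg adjustment). Of its experimental libraries only library 2 reached the 1 FPKM of the filter. The controls alone met the filter, so the adjusted p of Igf2 is given only as a description. Cartilage sums were 22.5, 23.5 and 26.9 FPKM in experimental and 40.5, 48.8 and 65.0 FPKM in control libraries. There 4 of the 15 markers reached 1 FPKM in any experimental library and 12 in any control. Matn3, at 11.3 to 14.3 FPKM in both groups, made up much of the experimental sums. The cartilage collagen gene Col2a1 had 0.179, 0.304 and 0.325 FPKM in experimental and 11.8, 15.8 and 24.9 FPKM in control libraries. At passage 1 Igf2 had a log2 difference of -0.17 and was not called. The part of cartilage RNA in these differences was not tested.

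**Figure D5:**
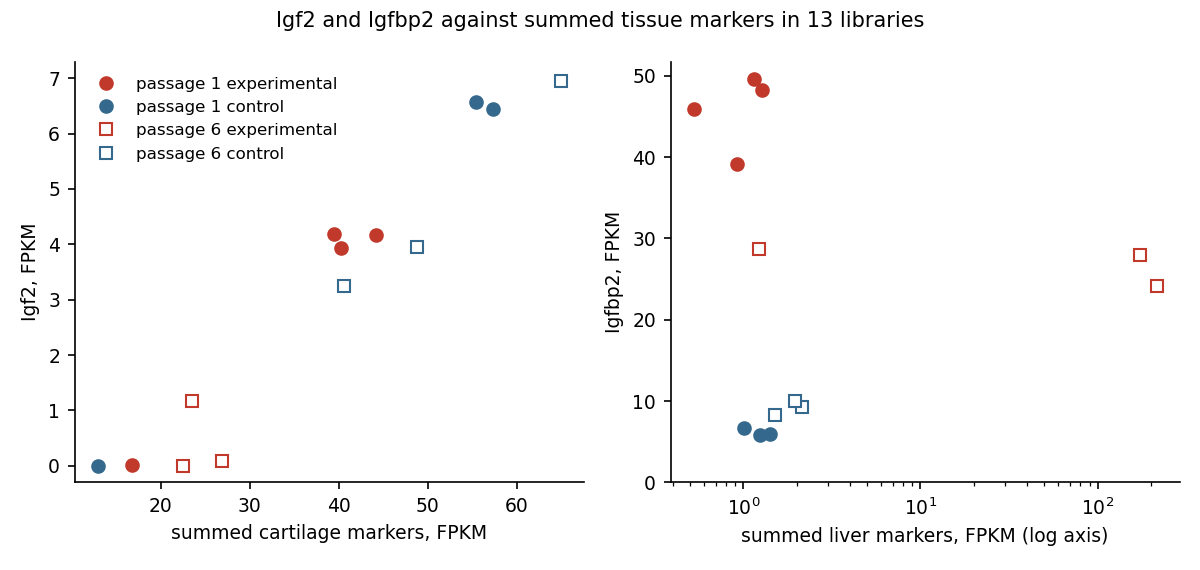
Igf2 against the summed cartilage markers (left) and Igfbp2 against the summed liver markers (right, log axis), in FPKM, with 1 point per library coloured by group and filled for passage 1. At passage 1 Igf2 is near 0 in the libraries with the lowest cartilage sums, 16.8 and 12.9 FPKM, while Igfbp2 at passage 6 is 28.7 FPKM in the experimental library with a liver sum of 1.22 FPKM and 24.2 and 27.9 FPKM in those with 215 and 174 FPKM.

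Counts in each list that follows stand beside a background of 30.4% of all genes called at passage 1 and 19.8% at passage 6. The lists were chosen with earlier results of these data known, so their counts, shares and adjusted p are given as a description. Among proteases that release IGFs from binding proteins, and their inhibitors, 4 of 12 genes were tested at each passage, with 0 higher and 1 lower at passage 1 and 1 of each at passage 6. Stc2, which encodes an inhibitor of pappalysin, fell at passage 1, with 2.69 ± 0.284 FPKM in experimental and 4.72 ± 0.0734 FPKM in control cells (SD, n = 4 and 3; log2 difference -0.64, limma adjusted p = 0.000739). At passage 6 Plat, the tissue plasminogen activator gene, fell to 17.0 FPKM, against 22.0 FPKM in controls (-0.35, limma adjusted p = 0.00912), and the sheddase gene Adam9 rose to 106 FPKM, against 90.0 FPKM in controls (0.24, limma adjusted p = 0.0188). The Plat call was lost without control 2 (limma adjusted p = 0.0516) and the Adam9 call without any 1 control (limma adjusted p between 0.0755 and 0.0861).

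Cell-surface and matrix partners of binding proteins gave 6 higher and 1 lower of 8 tested at passage 1, where 11.5% of all genes were higher and 18.9% lower, and 2 higher and 0 lower of 8 at passage 6, where 8.98% and 10.8% were. Itga5, the integrin subunit of the fibronectin receptor that also binds IGFBP2, rose at both passages, to 5.4 ± 0.678 FPKM against 1.91 ± 0.174 FPKM in controls at passage 1 (SD, n = 4 and 3; log2 difference 1.13, limma adjusted p = 0.000189) and to 9.46 ± 1.12 FPKM against 4.77 ± 0.0889 FPKM at passage 6 (SD, n = 3 each; 0.85, limma adjusted p = 0.00206). Lrp1, an endocytic receptor gene, rose at passage 1 to 8.24 FPKM against 4.13 FPKM in controls (0.84, limma adjusted p = 0.00189), and Fn1, the fibronectin gene, to 94.1 FPKM against 56.7 FPKM (0.71, limma adjusted p = 0.011). Itgb1, the partner of Itga5, rose at passage 6 to 388 FPKM against 325 FPKM in controls (0.25, limma adjusted p = 0.0189). The other passage 1 calls, named here after their values were seen, were Itgav (0.40), Lrp6 (0.23) and Itgb1 (0.19), higher, and Tmem219, an IGFBP3 receptor gene (-0.28), lower. Those of Lrp6 and Itgb1 were lost without any 1 control or experimental library 4, and that of Tmem219 without control 1 or 2 or experimental library 3 or 4 (limma adjusted p between 0.0501 and 0.119). Between the passage 1 libraries with cartilage transcripts Fn1 was not called (limma adjusted p = 0.101), and without any 1 control of passage 6 Itgb1 was not called (limma adjusted p between 0.0767 and 0.0898).

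Of other genes whose proteins share the IGFBP domain, 2 were higher and 0 lower of 4 tested at passage 1, and 1 and 0 of 4 at passage 6. Ccn4, a secreted matricellular protein gene, rose at both, to 3.98 ± 0.918 FPKM against 0.807 ± 0.204 FPKM in controls at passage 1 (SD, n = 4 and 3; log2 difference 1.45, limma adjusted p = 0.000641) and 4.21 ± 0.479 FPKM against 0.914 ± 0.0336 FPKM at passage 6 (SD, n = 3 each; 1.44, limma adjusted p = 0.000744). Ccn1, a related gene, rose at passage 1 to 27.8 ± 6.69 FPKM against 11.8 ± 1.17 FPKM (SD, n = 4 and 3; 1.14, limma adjusted p = 0.00224) and had 19.3 FPKM in experimental and 20.0 FPKM in control cells at passage 6. Every Ccn4 control lay below 1 FPKM, so Ccn4 passed the filter through its experimental libraries alone. The adjusted p of Ccn4 are therefore given only as a description. The Ccn4 difference was of similar size at both passages, while that of Ccn1 was not seen at passage 6. The change at passage 6 minus that at passage 1 was -1.21 for Ccn1 (limma adjusted p = 0.00495).

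Of the insulin receptor family and receptor adaptors, 1 was higher and 1 lower of 9 tested at passage 1, and 0 and 2 of 8 at passage 6. Irs1, a docking protein gene for both receptors, fell at passage 1, with 2.23 FPKM in experimental and 3.33 FPKM in control cells (log2 difference -0.42, limma adjusted p = 0.0025), and the adaptor gene Shc1 rose (0.34, limma adjusted p = 0.045). At passage 6 Insr fell to 7.22 FPKM against 9.83 FPKM in controls (-0.40, limma adjusted p = 0.0138) and Irs2 to 55.8 FPKM against 67.7 FPKM (-0.28, limma adjusted p = 0.0133). At passage 1 Insr had 4.36 FPKM in experimental and 4.17 FPKM in control cells and was not called. The Insr and Irs2 calls were lost without any 1 control (limma adjusted p between 0.0547 and 0.0666), that of Shc1 without any 1 control or experimental library 3 or 4 (0.0532 to 0.127), and that of Irs1 between the libraries with cartilage transcripts (0.0507).

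Genes of PI3K, AKT and mTOR signalling, downstream of the receptors, gave 3 higher and 1 lower of 20 at passage 1, and 1 higher and 2 lower of 20 at passage 6, shares of 20% and 15%, both below the 30.4% and 19.8% of all genes. The differences of the genes named here were small, with log2 values at passage 1 of -0.41 for Pik3r3, a regulatory subunit gene, and 0.29 for the transcription factor gene Foxo4. At passage 6 the values were -0.30 for the kinase gene Pdpk1, -0.29 for Rictor, a subunit gene of mTOR complex 2, and 0.20 for Akt2. For these 5 genes the limma adjusted p lay between 0.00707 and 0.0411. Apart from Pik3r3 each call was lost without some single library. That of Foxo4 was lost without control 2 (limma adjusted p = 0.053), and those of Pdpk1, Rictor and Akt2 without any 1 passage 6 control (0.0726 to 0.146). Rictor also lost its call without experimental library 2, and Akt2 without library 2 or 3. The Pik3r3 call was lost under 1 of 19 alternatives (limma adjusted p = 0.0725).

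Of 11 genes for tagging and sorting by mannose 6-phosphate, the other task of the Igf2r protein, 1 was higher and 4 lower at passage 1, and 3 were higher and 1 lower at passage 6. Nagpa, which encodes the enzyme that uncovers the tag, fell at passage 1 (log2 difference -0.59, limma adjusted p = 0.0053), as did Gnptg (-0.27, limma adjusted p = 0.0319), a subunit gene of the phosphotransferase that makes the tag, while Sort1, the sortilin gene, rose (0.26, limma adjusted p = 0.00477). At passage 6 Gnptab, the catalytic subunit gene of that enzyme, rose (0.35, limma adjusted p = 0.00524), as did M6pr, the gene of the smaller mannose 6-phosphate receptor (0.33, limma adjusted p = 0.00517), and the adaptor gene Gga3 fell (-0.23, limma adjusted p = 0.0236). The remaining calls, named after their values were seen, were Vps26a (-0.22), a retromer subunit gene, and the adaptor gene Gga2 (-0.17) at passage 1 and Sort1 (0.22) at passage 6. Of these, Gga2 was not called without any 1 control or experimental library 1 or 4, and Sort1 not without any 1 control or experimental library 3 (limma adjusted p between 0.054 and 0.133). The Gnptg call was lost without control 2 or 3 or experimental library 1 or 4 (limma adjusted p between 0.0587 and 0.122). That of Gga3 was lost without any 1 passage 6 control (0.0779 to 0.106). The passage 1 calls of Nagpa, Sort1 and Vps26a held without any 1 library. Each was lost under 1 of 19 alternatives (limma adjusted p between 0.0539 and 0.0689). Igf2bp3, which encodes an RNA-binding protein of the Igf2 mRNA and no IGFBP, had 2.82 FPKM in experimental and 2.59 FPKM in control cells at passage 1 and 2.28 and 1.73 FPKM at passage 6, and was not called.

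Over all pathway lists, 82 of 84 genes were in the tables. At passage 1, 58 were tested, 13 were higher and 8 lower, a share called of 36.2% beside 30.4% of all genes, with a median log2 difference of 0.05. At passage 6, 57 were tested, 8 were higher and 7 lower, 26.3% beside 19.8%, with a median of -0.00224. Leaving out control 2 or experimental library 4 of passage 1 gave 12 or 13 called genes, leaving out control 1, 2 or 3 of passage 6 gave 6, 5 or 6, and leaving out experimental library 1 gave 24. The share of higher genes among the called was 61.9% at passage 1, and 70.8%, 79.2% and 72.7% with quantile normalization, median-of-ratios scaling and equal totals.

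The genes whose pattern was most like a member's were found over 12344 genes by Pearson's r of log2(FPKM + 1) over the 13 libraries, each passage centred on its controls. The points fall into experimental and control groups, so a high r mostly reflects the group difference, and it is given as a description. Igfbp2 was most like Bmp1, a procollagen-cleaving protease gene (0.993), and the smooth muscle genes Myl9 (0.991) and Actg2 (0.989), whose log2 differences were 0.99, 3.07 and 2.77 at passage 1 and 0.45, 1.86 and 1.66 at passage 6. For Igfbp5 the nearest genes were Fkbp10, which encodes a collagen chaperone (0.993), Wls, needed for Wnt secretion (0.992), and Adipor1, an adiponectin receptor gene (0.990), with log2 differences of 1.81, 0.97 and 0.47 at passage 1 and 1.75, 0.92 and 0.56 at passage 6. Igfbp4 was most like Scarf2 (0.981), Il11ra1 (0.98) and Tmcc2 (0.975), and Igf1r most like Lrp1 (0.989), Ncam1 (0.986) and Tns1 (0.986). The nearest genes of Igfbp6 were Psap (0.967), Acss2 (0.964) and H2-K1 (0.95), of Igfbp7 Rps29 (0.952), Pot1b (0.944) and Rps13 (0.944), and of Igf2r Tspyl3 (0.928), Rwdd2b (0.922) and Setd6 (0.915). Among the members themselves r was 0.958 between Igfbp4 and Igfbp5, 0.92 between Igfbp2 and Igf1r and 0.909 between Igfbp2 and Igfbp5.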

How the data were processed

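Poly(A) RNA was sequenced by the submitters from RNA with an integrity number above 7.0, per the labels' protocols. The authors deposited FPKM per gene in 1 table per passage, and the submitters' processing notes name cutadapt, HISAT2, StringTie, DESeq2, edgeR and mm10 without versions. How FPKM were scaled and whether counting used strand is not given in the sources used here. FPKM keep no read counts, so precision comes from the spread between libraries. Of 34857 Ensembl identifiers, 34731 matched a symbol in GENCODE M21 (GRCm38); 1 gene with an empty cell was left out, and Ins1 and Ins2 are not analysed here.

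Each passage was fitted alone in limma 3.58.1 (R 4.3.3), using log2(FPKM + 1), a mean-variance trend and the genes that reached 1 FPKM in 3 or more of its libraries. Tests were two-sided with Benjamini-Hochberg adjustment over all genes and a threshold of 0.05. The difference between passages was a contrast over 13 libraries. Because replicates may not be separate cultures, p-values measure only how these samples spread, and that spread may be technical. The fit was also run on simulated data with independent noise for each gene. Those data held no tissue transcripts shared across a library, so that run does not bear on the calls made here. Python 3.11.15 made the tables and figures.

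The members and lists were chosen with earlier results of these data known, so members' contrasts are described without p. Calls of members and list genes, and the adjusted p of list genes, are likewise a description. All members were named, with the ligands and, per list and passage, up to 3 called genes with the largest change and a mean of at least 1 FPKM, or the 2 most abundant where none was called, the protein-coding genes within 500 kb of the binding protein pairs, and the 3 genes most like each member; some genes that this rule names are not reported here. The Igfbp4 promoter and the FPKM ratios were added after values were seen. Alternatives were other pseudocounts, filters, scalings, variance models, the replicate block, a colon covariate, leaving out each library and leaving out libraries by tissue markers. Replicate numbers were not treated as pairs. RefSeq promoters are from GRCm38.p6.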

Additional observations from a re-analysis of the deposited data

Results flagged for a closer look

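The difference of Igfbp2 between experimental and control cells itself differed between passages, by -1.25 on the log2 scale (passage 6 minus passage 1), in a contrast the choice of members already used. Among pathway genes the same contrast, tested with limma and Benjamini-Hochberg adjustment, was called for Stc2 (0.46, adjusted p = 0.0277), Plat (-0.64, adjusted p = 0.0151), Lrp1 (-0.59, adjusted p = 0.035), Ccn1 (-1.21, adjusted p = 0.00495), Insr (-0.45, adjusted p = 0.0427) and Irs2 (-0.32, adjusted p = 0.0112). It was also called for Pik3r3 (0.45, adjusted p = 0.0102), Rictor (-0.49, adjusted p = 0.00996), Gnptab (0.49, adjusted p = 0.00114) and Nagpa (0.85, adjusted p = 0.0037). Some calls were lost without 1 library. For Stc2 these were experimental library 4 and any control of passage 1, and experimental library 2 or 3 and control 2 or 3 of passage 6 (adjusted p up to 0.0703). For Lrp1 they were experimental library 4 of passage 1, experimental library 1 or 2 of passage 6 and any control (up to 0.08). For Insr they were experimental library 4 of passage 1, experimental library 2 of passage 6 and any control (up to 0.0981). The calls of Pik3r3, Irs2 and Rictor held without any 1 library, and each was lost under 1 of 26 alternatives. With passage 6 experimental libraries 2 and 3 left out together, the adjusted p was 0.0509 for Ccn1 and 0.0984 for Plat.

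A sample stood far from the others of its group in 4 genes of the passage 1 experimental libraries, where the gap to the nearest library divided by the range exceeded Dixon's critical value; chance flags about 1 in 20 groups. For Igf2 this was 0.939, with 0.0211 FPKM in library 4 and 3.93 to 4.18 FPKM in the others. For Stc2 it was 0.935, with 3.12 FPKM in library 3 and 2.53 to 2.57 FPKM in the others, and for Irs1 0.898, with 2.47 FPKM in library 3 and 2.14 to 2.17 FPKM in the others. For Igf1 it was 1, with 0.0163 FPKM in library 1 and 0 in the others, a flag that rests on values at the floor. The members, the ligand genes and the named pathway genes were screened, so some flags can come by chance.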

How the results depend on the processing

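Igfbp2, Igfbp4 and Igfbp5 kept their direction and call at both passages under every alternative run, with log2 differences without 1 library of 2.66 to 2.77, 0.42 to 0.52 and 1.35 to 1.42 at passage 1 and 1.39 to 1.53, 0.47 to 0.55 and 1.37 to 1.47 at passage 6. Igf1r kept its passage 1 call, and Igfbp2 the call of its difference between passages. No called member changed sign. The members were chosen by these same contrasts, so a kept or lost call describes the processing and is no independent support. Igfbp7 also lost its calls without a filter (both passages), without an intensity trend and between the libraries with cartilage transcripts (passage 1), and with robust settings (passage 6), and Igf2r its passage 1 call between the libraries with cartilage transcripts (-0.38). Igfbp6 at passage 1 was also called with a pseudocount or a minimum of 5 FPKM or robust settings, and the Igf1r difference between passages with a pseudocount of 0.1 FPKM (-0.49), quantile normalization (-0.42) or the colon covariate (-0.46). The Igfbp7 difference between passages was called without passage 6 experimental library 1 (-0.64). Leaving out 1 library gave 2173 to 4058 genes called at passage 1, 723 to 4296 at passage 6 and 1164 to 2552 for the difference, 12 to 25 and 5 to 24 pathway genes, and 4 to 6 and 3 to 5 members. Without a filter 1286 genes were called at passage 6 and 1185 for the difference, and with the colon covariate 997 genes and 9 pathway genes at passage 6. Between the libraries with cartilage transcripts 1029 genes and 7 pathway genes were called at passage 1 and 843 genes for the difference, with fewer samples. Of 1080 alternative values of called pathway genes, 234 were no longer called and 0 changed sign. The causes of these changes were not tested.

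With the replicate block 1813, 1438 and 728 genes were called at passage 1, passage 6 and for the difference, 12 and 9 pathway genes, and 4 members at each passage. Igfbp7 (-0.19) and Igf2r (-0.33) were then not called at passage 1. Deviations of same-numbered libraries correlated at 0.166, -0.192 and 0.239 at passage 1 and at -0.0664, -0.06 and 0.0332 at passage 6. Not every pair exceeded 0.1, so the libraries were taken to share only a number. Depth is unknown, and 3 or 4 libraries per group limit what can be called.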
